A study of Rattus norvegicus with 4 samples.

Results

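The inhibitor of DNA binding genes Id1, Id2, Id3 and Id4 were followed in rat hepatic stellate cells in which endoglin had been knocked down. These 4 genes are the whole Id family. The family was chosen with earlier results of these data known. Its probes were taken by name: every gene probe of the array that carries one of these names. This gave 9 of 41012 gene probes and 4 of 25513 genes tested. Hepatic stellate cells surround the sinusoids of the liver, store vitamin A, and turn into myofibroblasts that lay down matrix when the liver scars. The arrays measured 2 groups of cells against a common kind of control. The first group was transfected with an siRNA against endoglin, the second was left untreated, and the control cells received a control siRNA. Each array carried endoglin siRNA or untreated RNA in the Cy5 dye and control siRNA RNA in the Cy3 dye, with no dye swap. There were 2 arrays per group, 1 with RNA of 1 animal and 1 with RNA of 3 animals pooled. The sources used here give no strain, age, sex, days in culture, siRNA sequence or time from transfection to harvest. Nor do they tell whether the pool included the single animal, or whether control RNA was shared between arrays.

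Id proteins have a helix-loop-helix domain but no basic region. They pair with the E proteins and other basic helix-loop-helix (bHLH) factors and keep them off the E-box, the DNA element they bind. Id genes, Id1 and Id3 above all, are among the most direct targets of bone morphogenetic protein (BMP) signalling: BMP receptors phosphorylate Smad1 and Smad5, which enter the nucleus with Smad4 and bind the promoters. In endothelial cells endoglin is a co-receptor for BMP9 and BMP10 beside the receptor Acvrl1 (ALK1), and Id1 is a usual readout of that route. In stellate cells TGF-beta also reaches Smad1 through this receptor, and Id1 has been tied to their activation.

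Sequence next to the start of the 4 genes is shown because Smad1/5 complexes act through the promoter regions of this family. The part shown need not hold the sites where they bind. The windows are the 250 bases before the RefSeq start of each gene in the assembly GRCr8, written along the gene's own strand. Id1 is chr3:161671314-161671563 (plus strand), Id2 is chr6:47470996-47471245 (minus strand), Id3 is chr5:153656041-153656290 (plus strand) and Id4 is chr17:16598294-16598543 (minus strand). Capitals mark matches, on either strand, to the E-box CANNTG and to the TATA motif TATAAA.
Id1: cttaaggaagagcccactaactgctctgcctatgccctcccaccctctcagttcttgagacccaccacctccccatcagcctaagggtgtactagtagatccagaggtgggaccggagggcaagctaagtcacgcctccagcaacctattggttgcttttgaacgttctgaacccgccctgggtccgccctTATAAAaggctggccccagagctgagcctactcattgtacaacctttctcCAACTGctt
Id2: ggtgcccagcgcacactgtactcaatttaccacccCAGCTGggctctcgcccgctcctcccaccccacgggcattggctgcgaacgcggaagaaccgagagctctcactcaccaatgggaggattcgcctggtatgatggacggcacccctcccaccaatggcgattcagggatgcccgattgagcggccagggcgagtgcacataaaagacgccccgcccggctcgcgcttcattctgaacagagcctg
Id3: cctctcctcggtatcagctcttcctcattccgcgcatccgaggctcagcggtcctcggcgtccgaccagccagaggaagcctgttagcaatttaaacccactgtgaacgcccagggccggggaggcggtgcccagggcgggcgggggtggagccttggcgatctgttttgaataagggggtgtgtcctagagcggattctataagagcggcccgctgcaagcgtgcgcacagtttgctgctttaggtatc
Id4: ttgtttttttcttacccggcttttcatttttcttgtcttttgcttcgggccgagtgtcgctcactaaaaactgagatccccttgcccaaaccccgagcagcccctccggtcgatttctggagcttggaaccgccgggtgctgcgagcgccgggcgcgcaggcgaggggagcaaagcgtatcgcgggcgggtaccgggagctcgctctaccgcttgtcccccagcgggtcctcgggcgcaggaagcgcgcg
The E-box letters occurred once in the Id1 window, beginning 9 bases before the start, and once in the Id2 window, beginning 215 bases before it. They occurred in 65.5% of all 33469 RefSeq windows of this length. The letters TATAAA stood 59 bases before the start of Id1, a motif found in 12.9% of windows. The letters GGCGCC, a form of the BMP-type Smad motif, had 0 matches in the 4 windows, against 8.69% of all windows. The general Smad motif GTCTG or CAGAC also had 0 matches, against 42.9% of all windows. Other forms of these motifs were not counted. These counts say only which letters are in these windows, and the known BMP-responsive elements of Id genes lie in part further upstream. The 4 windows held 54.8% (Id1), 62.8% (Id2), 61.2% (Id3) and 62.8% (Id4) G and C, where the median window held 51.2%.

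The arrays read Id1 with 1 probe, Id2 with 3, Id3 with 3 and Id4 with 2. The array files place the Id1 probe at chr3:142992779-142992838, the Id4 probe used in the tests at chr17:22525981-22526040 and the Id3 probe used in the tests at chr5:154945376-154945435. The sources used here name neither the build of these coordinates nor the part of the transcript they fall in, and they are not on the scale of the promoter windows. The other Id3 probes, A_44_P139744 and A_44_P276352, cover nearly the same place, so they are not independent readings. Their spans of 175 bases on the chromosome overlap by 158 bases, with starts 17 bases apart. The tested Id3 probe spans 60 bases, so the overlap of these longer spans is not a count of shared probe bases. All 9 probes were well above background in both dyes on all 4 arrays, so no Id value is a bound. Over all gene spots, the share well above background was 93.3% in Cy5 and 87.2% in Cy3 on the pooled untreated array. On the other arrays it ran from 65.7% to 70.2% in Cy5 and from 61.9% to 62.3% in Cy3. The number of arrays limits the precision, and with 2 per group the p-values measure only the spread between these arrays. Where control RNA was shared they leave out the control's own spread.

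Endoglin mRNA itself was low in the knockdown. Relative to control siRNA, Eng had log2 ratios of -3.08 (1 animal) and -1.72 (pool) with endoglin siRNA, against -0.36 (1 animal) and -0.42 (pool) in untreated cells. Both knockdown arrays lay below both untreated arrays. The fitted log2 ratio of endoglin siRNA to control siRNA was -2.40 ± 0.26 (SE; limma adjusted p = 0.0051).

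Id3 was the only Id gene that passed the test in any of the 3 comparisons, and with RNA source as a block in the fit Id4 passed too. Against control siRNA, with endoglin siRNA, Id1, Id3 and Id4 had fitted ratios of 1.25-fold, 1.31-fold and 1.29-fold, and Id2 went opposite ways in the 2 RNA sources. Against untreated cells, Id1 and Id3 were higher with endoglin siRNA in both RNA sources, and these differences did not pass the test after adjustment over all genes. For Id1 that direction holds with the dyes as the labels give them and turns with the sign of the deposited table (fitted -0.13). With that sign Id3 stays higher by its tested probe (0.38), but not by its probe A_44_P276352. None of the 4 genes passed as lower with endoglin siRNA, against control siRNA or against untreated cells.

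**Figure D1:**
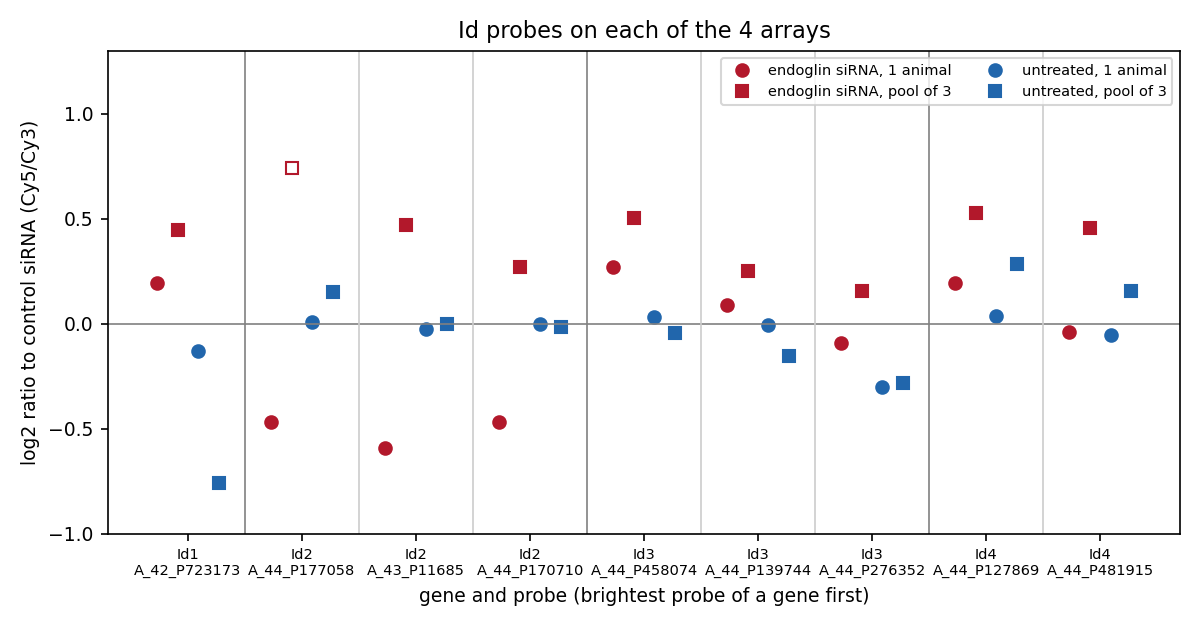
Log2 ratio of Cy5 to Cy3 for each of the 9 Id probes (x axis) on each of the 4 arrays, circles for 1 animal and squares for the pool, endoglin siRNA in red and untreated in blue, with 0 meaning equal to control siRNA. The hollow square is a spot marked as non-uniform and left out of the fit. The red points of Id1 and of all 3 Id3 probes lie above their blue points, whereas the red points of Id2 lie on both sides of them, near -0.5 for 1 animal and above 0.25 for the pool.

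Id3, which in many BMP-responsive cells is induced together with Id1, was read by probe A_44_P458074 at log2 ratios to control siRNA of 0.27 (1 animal) and 0.50 (pool) with endoglin siRNA, against 0.03 (1 animal) and -0.04 (pool) in untreated cells. Both endoglin siRNA arrays were above 0 and above both untreated arrays, which stayed near 0. The fitted ratio of endoglin siRNA to control siRNA was 0.39 ± 0.07 on the log2 scale (SE; 95% confidence interval 0.21 to 0.56), or 1.31-fold, and Id3 rose (limma adjusted p = 0.0246, over 25513 genes). In this comparison 8.13% of all genes tested passed and 5.26% passed as higher, so that 1 passing gene among 4 is to be read against that share. At an unadjusted p under 0.05 in limma there were 2 Id genes, Id3 (0.0011) and Id4 (0.0070), against 23.1% of all genes.

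The Id3 probes did not give the same size. Probe A_44_P139744 read 0.09 (1 animal) and 0.25 (pool) with endoglin siRNA, against -0.01 (1 animal) and -0.15 (pool) in untreated cells. Probe A_44_P276352 read -0.09 (1 animal) and 0.15 (pool) with endoglin siRNA, against -0.30 (1 animal) and -0.28 (pool) in untreated cells. Their fitted ratios of endoglin siRNA to control siRNA were 0.17 ± 0.07 and 0.03 ± 0.07 (SE), below the 0.39 of the brightest probe. With the mean of the Id3 probes in place of the brightest one, the ratio was 0.20 and did not pass (limma adjusted p = 0.161). Set against untreated cells instead, where a dye effect of a probe cancels, the 3 probes lay closer together, at 0.39 ± 0.11 for A_44_P458074, 0.25 ± 0.10 for A_44_P139744 and 0.32 ± 0.11 for A_44_P276352 (log2, SE). For each of the 3 Id3 probes both endoglin siRNA arrays lay above both untreated arrays. Probe A_44_P276352 was much dimmer on the untreated 1-animal array (13.09 in Cy5 and 13.39 in Cy3, log2 intensity) than on the other arrays (14.46 to 15.37). Its ratio on that array is to be read with caution.

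Id1, the best known BMP/Smad1/5 target of the family, had log2 ratios to control siRNA of 0.19 (1 animal) and 0.44 (pool) with endoglin siRNA, against -0.13 (1 animal) and -0.76 (pool) in untreated cells. The groups did not overlap, and the distance between them was larger in the pool. Direction here follows the dyes given in the labels; the authors' deposited table carries both untreated arrays with the opposite sign, under which Id1 would stand above control siRNA in untreated cells. Against control siRNA the fitted ratio with endoglin siRNA was 0.32 ± 0.14 (SE; 95% confidence interval -0.0070 to 0.64), or 1.25-fold, and did not pass (limma adjusted p = 0.227). Untreated cells against control siRNA gave -0.45 ± 0.14 (SE; 95% confidence interval -0.77 to -0.12), which also did not pass (limma adjusted p = 0.211). The value was -0.76 without the 1-animal untreated array and -0.13 without the pooled one. The pooled untreated array was also the one with far more spots well above background than the others. In this comparison 0.709% of genes passed and 13.6% had an unadjusted p under 0.05.

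Id4, often described as opposing the other family members, had log2 ratios of 0.20 (1 animal) and 0.53 (pool) with endoglin siRNA, against 0.03 (1 animal) and 0.29 (pool) in untreated cells, by probe A_44_P127869. The pooled untreated array lay above the 1-animal endoglin siRNA array, so the groups overlapped. The fitted ratio of endoglin siRNA to control siRNA was 0.36 ± 0.10 (SE; 95% confidence interval 0.13 to 0.59), or 1.29-fold, and did not pass (limma adjusted p = 0.0669). When the fit took the RNA source as a block, the same ratio passed (limma adjusted p = 0.0073). The second Id4 probe, A_44_P481915, read -0.04 (1 animal) and 0.46 (pool) with endoglin siRNA, against -0.06 (1 animal) and 0.15 (pool) in untreated cells, so with this probe only the pooled arrays stood off 0. Its fitted ratio of endoglin siRNA to control siRNA was 0.21 ± 0.12 (SE).

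Id2, which binds E proteins and also the retinoblastoma protein, split by RNA source. Probe A_43_P11685 read -0.59 (1 animal) and 0.47 (pool) with endoglin siRNA, against -0.03 (1 animal) and 0.00060 (pool) in untreated cells. Probe A_44_P170710 read -0.47 (1 animal) and 0.27 (pool) with endoglin siRNA, against -0.0031 (1 animal) and -0.02 (pool) in untreated cells. The third probe, A_44_P177058, read -0.47 (1 animal) with endoglin siRNA, against 0.0056 (1 animal) and 0.15 (pool) in untreated cells, and its pooled endoglin siRNA spot was marked as non-uniform and left out. Both untreated arrays were at control level, and the endoglin siRNA arrays lay on either side of them. The fitted ratio of endoglin siRNA to control siRNA was -0.06 ± 0.21 (SE; 95% confidence interval -0.54 to 0.42; limma adjusted p = 0.900), an interval that includes falls and rises as large as the ratio of Id3.

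**Figure D2:**
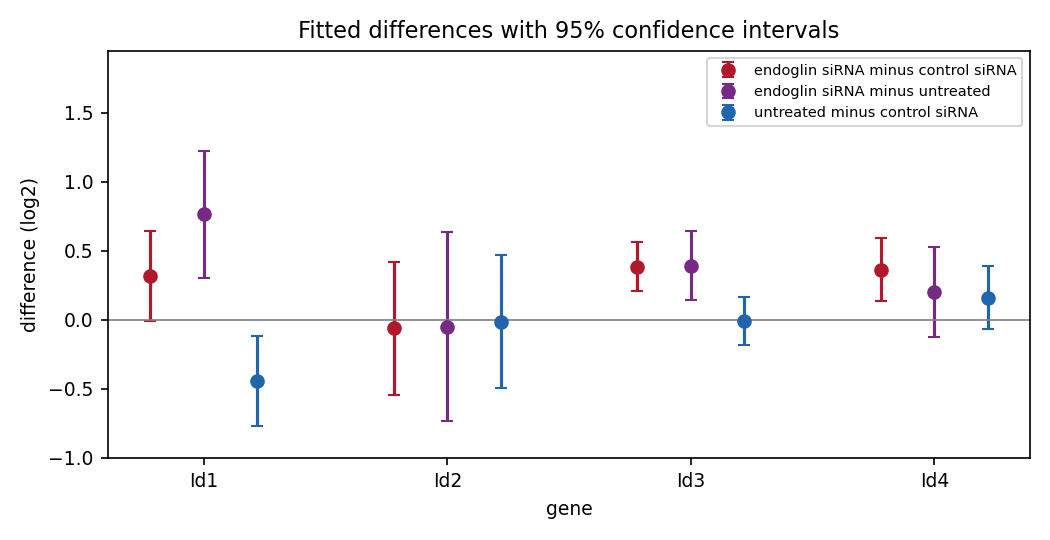
Fitted log2 differences for the 4 Id genes (x axis), with 95% confidence intervals of the moderated limma fit over 4 arrays, for endoglin siRNA minus control siRNA (red), endoglin siRNA minus untreated (purple) and untreated minus control siRNA (blue). The purple intervals of Id1 (0.30 to 1.23) and Id3 (0.15 to 0.64) lie above 0, and those of Id2 and Id4 include 0.

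The comparison of endoglin siRNA with untreated cells runs through the control siRNA channel, so that a constant dye effect cancels. Id1 was higher with endoglin siRNA by 0.76 ± 0.20 on the log2 scale (SE; 95% confidence interval 0.30 to 1.23), or 1.70-fold, more than 99.8% of genes tested. Without the pooled untreated array the difference was 0.45. With the sign of the deposited table on the untreated arrays it was -0.13 (0.06 in 1 animal and -0.32 in the pool), more than 20.3% of genes. Id3 was higher by 0.39 ± 0.11 (SE; 95% confidence interval 0.15 to 0.64), more than 98.5% of genes tested. After adjustment over all genes neither passed (limma adjusted p = 0.318 for Id1 and 0.339 for Id3); 0.0862% of all genes passed in this comparison, 0.0353% as higher and 0.051% as lower. Their unadjusted p-values in limma were 0.0055 and 0.0068, and 8.23% of all genes had an unadjusted p under 0.05. Both endoglin siRNA arrays lay above both untreated arrays for Id1 and Id3, 2 of the 4 genes, which was also the case for 24.4% of all genes tested. Id4 differed by 0.20 ± 0.14 (SE; 95% confidence interval -0.12 to 0.53; limma adjusted p = 0.816), with 0.04 without the pooled endoglin siRNA array, 0.08 without the 1-animal untreated array, 0.33 without the pooled untreated array and 0.37 without the 1-animal endoglin siRNA array. Id2 differed by -0.05 ± 0.29 (SE; 95% confidence interval -0.73 to 0.63; limma adjusted p = 0.993). The median over all genes was 0.02.

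Taken within each RNA source, with 1 array per group and no test, the difference between endoglin siRNA and untreated cells was larger in the pool for Id1, at 0.33 in 1 animal and 1.20 in the pool. Id3 differed by 0.24 in 1 animal and 0.55 in the pool. Id4 differed by 0.16 in 1 animal and 0.24 in the pool. Id2 differed by -0.57 in 1 animal and by 0.47 in the pool, so it was lower with endoglin siRNA in one source and higher in the other.

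Between untreated and control siRNA cells, the tested probes of Id2 and Id3 had ratios near 0. The fitted log2 ratio of untreated to control siRNA was -0.01 for Id2 (95% confidence interval -0.49 to 0.47) and -0.0073 for Id3 (-0.18 to 0.17). The other Id3 probes read lower, at -0.08 for A_44_P139744 (95% confidence interval -0.25 to 0.09) and -0.29 for A_44_P276352 (-0.47 to -0.12). For Id4 it was 0.16 (95% confidence interval -0.069 to 0.39). None of the 4 Id genes passed in this comparison, and Id1 was the one with an unadjusted p under 0.05 in limma (0.0141).

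The levels of Id1, Id2 and Id4 differed between the RNA sources, in values given here with no test. Levels here are log2 normalized intensities of single channels, which can be set side by side for 1 probe across arrays and not between probes. Id4 lay between 14.17 and 14.38 in the 4 channels of 1 animal and between 12.11 and 12.63 in the 4 channels of the pool, 3.58-fold lower in the pool on average. Id2 (A_43_P11685) lay between 12.17 and 12.76 in 1 animal and between 10.58 and 11.22 in the pool, 3.24-fold lower. Id1 lay between 11.27 and 11.55 in 1 animal and between 9.39 and 10.61 in the pool, 2.48-fold lower. For these 3 genes the sources did not overlap whatever the cells had been given, control siRNA included.

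Id3 (A_44_P458074) lay between 15.49 and 15.76 in 1 animal and between 14.97 and 15.47 in the pool, a mean difference of -0.44 with the ranges almost touching. The other Id3 probes overlapped between sources, and A_44_P276352 read 13.09 (Cy5) and 13.39 (Cy3) on the untreated 1-animal array, against 15.28 and 15.37 on the endoglin siRNA 1-animal array. All 4 channels of the pool lay below every channel of 1 animal for the tested probes of all 4 Id genes, against 21.8% of all genes tested. They did so by more than 2-fold for 1 of these 4 tested probes, that of Id4, against 0.756% of all genes. The tested Id2 probe fell just short, while the other Id2 probe with all its spots, A_44_P170710, and the other Id4 probe also lay more than 2-fold lower. The median gene differed by -0.03 between pool and 1 animal, the 5th and 95th percentiles over genes being -0.61 and 0.66. With 1 animal and 1 pool this is a difference between 2 RNA sources and has no replicate check.

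**Figure D3:**
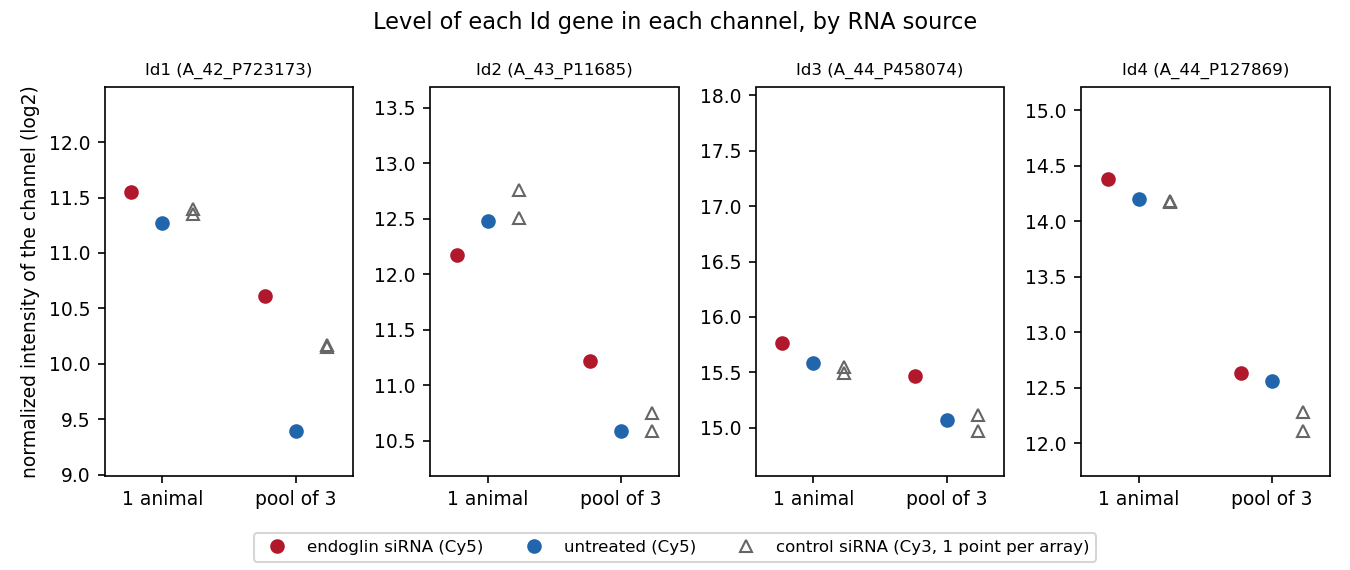
Normalized log2 intensity of the tested probe of each Id gene in each channel (y axis, same span in every panel), by RNA source (x axis), with endoglin siRNA (red) and untreated (blue) in Cy5 and control siRNA (triangles) in Cy3. The points of the pool lie below those of 1 animal in every panel, by about 2 units for Id4 and by less than 1 unit for Id3.

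The cells were checked against marker genes of liver cell types. The summed level of 11 stellate cell markers was 18.33 to 18.77 (log2) in the channels of 1 animal and 18.24 to 18.80 in those of the pool, with Vim, Cygb, Des and Pdgfrb bright and Gfap and Ngfr the dimmest. Gfap read 7.49 to 7.56 on 3 of the arrays and 8.40 to 8.60 on the pooled untreated array; the median probe not well above background read 7.38 to 7.46 on the 4 arrays. Of 7 measured markers of sinusoidal endothelial cells 2 were well above background on all arrays. Their summed level was 11.48 to 12.43 in 1 animal and 10.51 to 10.89 in the pool, carried in 1 animal mainly by Kdr. Kdr, a VEGF receptor, rose with endoglin siRNA by 0.87 against control siRNA (limma adjusted p = 0.0310), while Cdh5, which defines endothelial junctions, stayed near background. For Kupffer cells and macrophages 10 of 11 markers were measured, with a summed level of 13.55 to 14.73 in 1 animal and 11.96 to 12.95 in the pool. All 10 were lower with endoglin siRNA than in untreated cells (median -0.51; 1 fell in the limma test, C1qa, by 1.09, adjusted p = 0.0383, against 0.051% of all genes) and 9 of 10 were above 0 against control siRNA (median 0.15). In untreated cells all 10 were above control siRNA (median 0.75), and 3 rose, against 0.435% of all genes. With the sign of the deposited table these directions turn: all 10 would be higher with endoglin siRNA than in untreated cells (median 1.01) and all 10 lower in untreated than in control siRNA cells (median -0.75). The summed level of cholangiocyte markers, carried mainly by Spp1, was 13.90 to 15.10 in 1 animal and 11.71 to 13.29 in the pool. For hepatocyte markers it was 10.83 to 11.14 in 1 animal and 10.83 to 11.01 in the pool, and for portal fibroblast and mesothelial markers 12.17 to 12.32 in 1 animal and 12.04 to 12.39 in the pool. The summed levels of macrophage, endothelial and cholangiocyte markers and the levels of Id1, Id2 and Id4 were thus all lower in the pool. Single markers differed from these sums. The macrophage marker C1qb and the dim endothelial markers Cdh5 and Pecam1 were not lower in the pool. Of the cholangiocyte markers, Sox9 overlapped between sources and Krt7 was higher in the pool (9.23 to 10.95, against 7.53 to 7.85 in 1 animal). The portal fibroblast and mesothelial sums overlapped, but single markers of that list moved in opposite directions. Fbln2 was higher in the pool (9.57 to 10.57, against 7.96 to 8.25 in 1 animal), as was Msln. Entpd2 was lower in the pool (9.69 to 9.90, against 10.97 to 11.09 in 1 animal). The part of cell mixture in the Id values was not tested. In such bulk samples fewer cells of a type and less RNA per cell cannot be told apart.

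Among the genes around the Id family, some passed against control siRNA with endoglin siRNA and 0 against untreated cells in limma. The counts below are to be read against 5.26% of all genes passing as higher and 2.88% passing as lower with endoglin siRNA against control siRNA, and a median of 0.02 over all genes. Of 15 measured BMP/Smad1/5 targets other than Id genes, 1 rose and 0 fell, 10 had a ratio above 0 and the median was 0.07. The 1 that rose was Nog, which encodes the BMP antagonist noggin, at 0.54 ± 0.07 (SE; limma adjusted p = 0.0080). Of 9 BMP ligands 1 rose and 2 fell (median -0.05). Bmp4 rose by 0.65, Bmp6, the ligand through which liver endothelium controls hepcidin, fell by 0.53, and Bmp3 fell by 0.52 (limma adjusted p = 0.0353, 0.0094 and 0.0216).

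Of 8 BMP receptors and co-receptors 0 rose and 0 fell in the limma test, 2 of them having an unadjusted p under 0.05 (median -0.08). The 2 largest ratios were those of Acvrl1 and of Acvr1, a BMP type I receptor. Acvrl1, the receptor that partners endoglin, had -1.26 (1 animal) and -0.30 (pool) with endoglin siRNA, against 0.16 (1 animal) and -0.27 (pool) in untreated cells. The 1-animal endoglin siRNA array was low and the pooled arrays of both groups lay together, and the fitted ratio of -0.78 did not pass (limma adjusted p = 0.0611). Acvr1 stood at -0.22 with endoglin siRNA against control siRNA (limma adjusted p = 0.150). Of 10 Smads and their regulators 0 rose and 0 fell, 1 having an unadjusted p under 0.05 in limma (median -0.0022). The 2 largest ratios were -0.23 for Smurf2, a ubiquitin ligase acting on Smads and their receptors, and 0.16 for Smad1.

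Of 10 BMP antagonists 2 rose and 2 fell (median -0.14). Besides Nog, Crim1, a transmembrane BMP-binding protein, rose by 0.33 (limma adjusted p = 0.0275). Fstl1, a secreted follistatin-like protein, fell by 0.51 and Nbl1, a secreted BMP antagonist, fell by 0.49 (limma adjusted p = 0.0076 and 0.0262). Untreated cells lay on the same side of control siRNA, at 0.12 (Nog), 0.38 (Crim1), -0.35 (Fstl1) and -0.17 (Nbl1), and none of these passed. Between endoglin siRNA and untreated cells Crim1 differed by only -0.05 and Fstl1 by -0.15, so most of their ratio was shared by both groups.

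**Figure D4:**
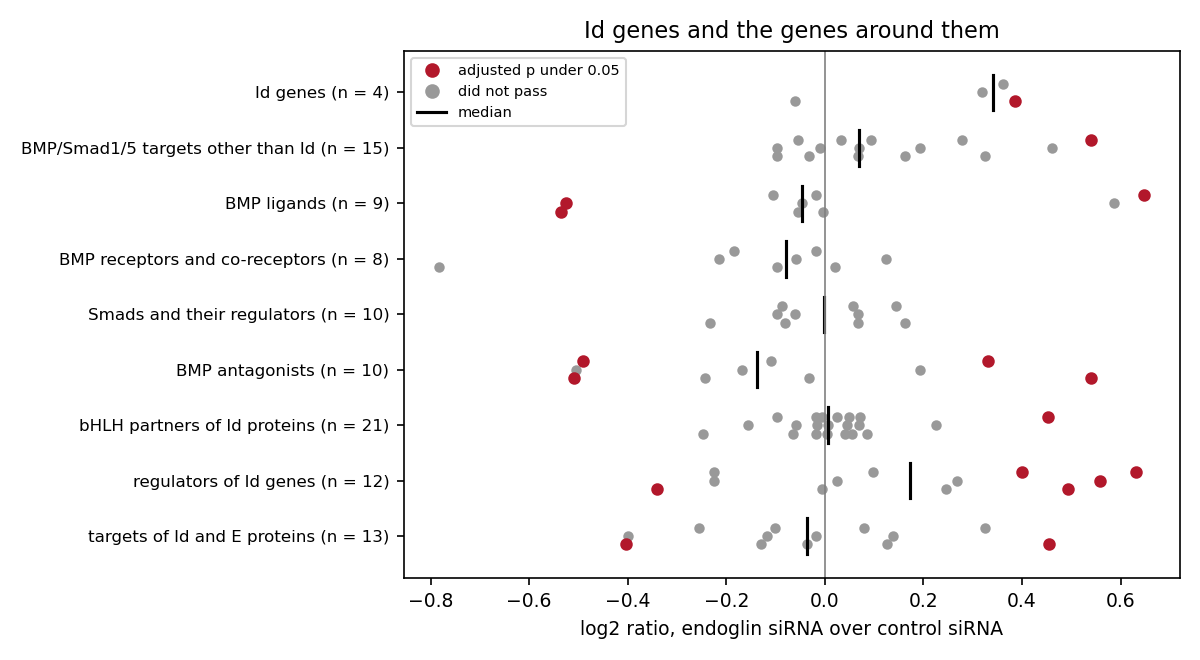
Fitted log2 ratio of endoglin siRNA to control siRNA (x axis) for the measured members of each gene list (y axis), red where the limma adjusted p was under 0.05 and grey otherwise, with a bar at the list's median. The bHLH partners cluster around 0, whereas 3 of the 4 Id genes lie between 0.32 and 0.39.

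The factors that Id proteins bind had ratios from -0.25 to 0.45. Of 21 measured bHLH partners 1 rose and 0 fell (median 0.0056). Tcf21, a bHLH factor of mesenchymal cells, rose by 0.45 (limma adjusted p = 0.0214). The E proteins, named here for their role after their values had been seen, had ratios of -0.02 (Tcf3), 0.09 (Tcf4) and -0.02 (Tcf12). Bhlhe41, a bHLH repressor of the circadian clock, rose in untreated cells against control siRNA by 0.75 (limma adjusted p = 0.0079) and stood at 0.02 with endoglin siRNA.

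Of 12 measured genes known to act on Id genes or Id proteins, 4 rose and 1 fell (median 0.17). Klf6, a zinc finger factor induced early in stellate cell activation, rose by 0.63, and Egr1, an immediate-early factor, rose by 0.56 (limma adjusted p = 0.0066 and 0.0142). Usp1, the deubiquitinase that stabilizes Id proteins, rose by 0.49, and Atf3, a stress-induced factor that represses Id1 in human epithelial cells under TGF-beta, rose by 0.40 (limma adjusted p = 0.0076 and 0.0273). Tgfb3, a TGF-beta ligand, fell by 0.34 (limma adjusted p = 0.0321). In untreated cells against control siRNA the ratios were 0.11 (Klf6), 0.17 (Egr1), 0.28 (Usp1), 0.14 (Atf3) and -0.27 (Tgfb3). None of these passed, and Tgfb3 differed by only -0.07 between endoglin siRNA and untreated cells. Of 13 measured targets of Id and E proteins 1 rose and 1 fell (median -0.04). These were the cell cycle inhibitors Cdkn1b, which rose by 0.45, and Cdkn2b, which fell by 0.40 (limma adjusted p = 0.0131 and 0.0194).

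With endoglin siRNA against untreated cells 0 members of these 8 lists passed in limma, although 2 to 4 members had an unadjusted p under 0.05 in 7 of the lists and 1 had in the receptor list. Over all genes 0.0862% passed in this comparison and 8.23% had an unadjusted p under 0.05. Had the untreated arrays the deposited sign, 11.5% of all genes would pass, and each of the 8 lists would have at least 1 passing member. The medians ran from -0.05 to 0.11, against 0.02 over all genes. The 2 largest differences among the BMP/Smad1/5 targets other than Id genes were those of Nog, at 0.42, and Grem1, which encodes the BMP antagonist gremlin, at 0.39.

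The genes whose 4 log2 ratios were most like those of an Id gene were found by the root mean square difference over the 4 arrays, among genes with a RefSeq symbol. For Id1 they were Epb41l3 (0.128), Cdk1 (0.170) and Npr3 (0.173), all of them low on the pooled untreated array. For Id2 they were Cxxc5 (0.115), Adarb1 (0.130) and Parm1 (0.155), all negative with endoglin siRNA in 1 animal and positive in the pool. Closer matches existed for Id3, with Abhd14a (0.030), Psme4 (0.036) and Appl2 (0.044), and for Id4, with Ostm1 (0.043), Gopc (0.048) and Gna14 (0.049). With 4 arrays such likeness is a description of shared pattern.

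The calls of Id3, Id4 and Id2 and the direction of Id2 depended on the processing. With the log ratios of Feature Extraction, the scanner software, Id3 stood at 0.22 with endoglin siRNA against control siRNA and did not pass (limma adjusted p = 0.313; 0 genes passed there, 7102 having an unadjusted p under 0.05). Without the pooled endoglin siRNA array Id3 stood at 0.27 (limma adjusted p = 0.0945). Id4 passed with the block and also with normexp fitted without the 10 lowest spots (limma adjusted p = 0.0384) and without the 1-animal endoglin siRNA array (0.0450). Id1, Id3 and Id4 stayed above control siRNA with endoglin siRNA under every setting plotted. Id2 passed as lower without the pooled endoglin siRNA array (-0.59; limma adjusted p = 0.0067) and as higher without the 1-animal one (0.47; limma adjusted p = 0.0355), and its sign also changed with median centring (0.90) or scaling between arrays (0.66) in the normalization. Median centring also moved the median of all genes, to 0.32.

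**Figure D5:**
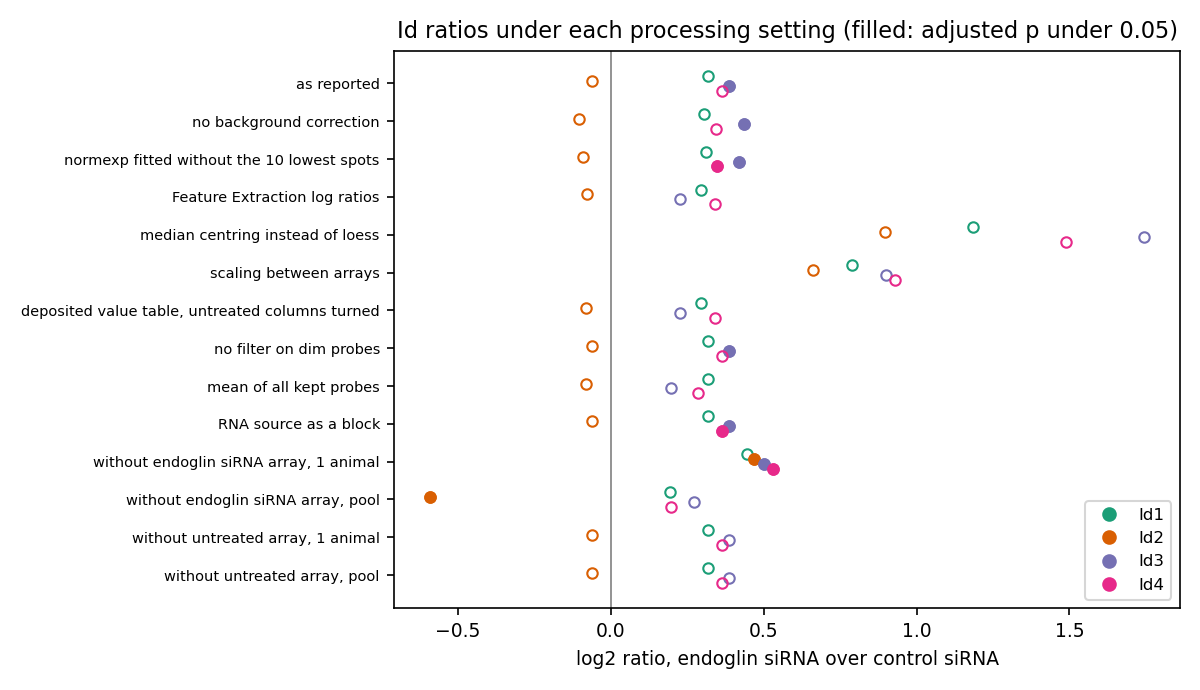
Fitted log2 ratio of endoglin siRNA to control siRNA (x axis) for the 4 Id genes under each processing setting (y axis), filled where the limma adjusted p was under 0.05. Id1, Id3 and Id4 lie right of 0 in every row, and Id2 lies at -0.59 without the pooled endoglin siRNA array and at 0.47 without the 1-animal one.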

How the data were processed

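RNA of rat hepatic stellate cells had been amplified, labelled and hybridized to whole rat genome 4x44K oligonucleotide arrays. Per the file headers the scanner images were read by version 9.5.1.1 of the Agilent software Feature Extraction; Rosetta Resolver is named in the labels. The signal columns hold linear intensity values, per the file headers, and the scanner's own log ratios are log10 of Cy5 over Cy3. The authors' deposited table holds log10 ratios that equal the scanner's on the endoglin siRNA arrays and are its negative on the untreated arrays (correlation 1 and -1); the sources used here do not say why. Slide and scan were the same for all arrays.

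From the intensity values deposited, log2 ratios were computed with limma 3.58.1 in R 4.3.3: normexp background correction (offset 50), loess within arrays with controls at weight 0, spots marked as outliers left out (189 to 289 per array) and spots of a probe averaged. Probes had to be well above background in Cy5 or Cy3 on 2 or more arrays (30021 of 41012), and the brightest probe with a usable spot on all 4 arrays stood for each gene (for Id2 this left out its brightest probe). The fit had 2 group means over all 4 arrays, 2 residual and 5.27 prior degrees of freedom, two-sided moderated tests and Benjamini-Hochberg adjustment at 0.05 over 25513 genes. Channel levels were taken after loess and Aquantile normalization. Names were updated through RefSeq (12100 genes matched). The fit was tested on simulated data.

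Named genes were all Id probes, Eng, per list up to 4 members that passed or otherwise those with the 2 largest ratios, and the 3 genes most like each Id gene. The members and lists were chosen with earlier results of these data known. Alternatives were the background method, the scanner's ratios, median centring, scaling between arrays, the deposited table with the untreated columns turned, no dim filter, the mean of a gene's probes, RNA source as a block and leaving out each array.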

Additional observations from a re-analysis of the deposited data

Results flagged for a closer look

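Id2 moved in opposite directions in the 2 RNA sources. With endoglin siRNA relative to untreated cells its log2 difference was -0.57 in 1 animal and 0.47 in the pool (probe A_43_P11685). With 1 array per source and group the difference between the sources was not tested. A further Id2 probe, A_44_P170710, gave -0.47 in 1 animal and 0.29 in the pool.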

How the results depend on the processing

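Against control siRNA, with endoglin siRNA, Id1 kept its direction and did not pass under all 14 alternatives (0.19 to 1.19), and Id3 and Id4 kept their direction under all 14. Id3 no longer passed with the scanner's log ratios (0.22), the deposited table turned (0.22), median centring (1.74), scaling between arrays (0.90) or the mean of its probes (0.20), and leaving out 1 array gave 0.27 to 0.50, with limma adjusted p of 0.0945 without the pooled endoglin siRNA array and 0.0577 without either untreated array, where the ratio is the same and fewer arrays estimate the spread. Id4 passed with normexp fitted without the 10 lowest spots (0.35; limma adjusted p = 0.0384), with the block (0.36; 0.0073) and without the 1-animal endoglin siRNA array (0.53; 0.0450), its leave-one-out range being 0.20 to 0.53. Median centring moved the median of all genes to 0.32 for this comparison and to 0.26 for endoglin siRNA against untreated. Id2 reversed with median centring (0.90) and scaling (0.66), and leaving out 1 array gave -0.59 (limma adjusted p = 0.0067) to 0.47 (0.0355). With endoglin siRNA against untreated cells Id3 and Id4 kept direction and did not pass in all 14, whereas Id2 reversed with median centring (0.77) and scaling (0.67) and ran from -0.58 to 0.48 when 1 array was left out, passing in limma without the pooled endoglin siRNA array (adjusted p = 0.0437). For untreated against control siRNA, Id2 reversed without background correction (0.011), with the scanner's log ratios (0.027), the deposited table (0.027) and median centring (0.12), its leave-one-out range being -0.025 to 0.00060. Id3 reversed with median centring (0.27), with a leave-one-out range of -0.044 to 0.030. It stood at -0.22 with the scanner's log ratios and at -0.13 with the mean of its probes. An alternative chosen after seeing the data gave the untreated arrays the sign of the deposited table: untreated against control siRNA then gave Id1 0.45, Id2 0.012, Id3 0.0073 and Id4 -0.16, and endoglin siRNA against untreated gave Id1 -0.13. The cause of these changes was not tested.

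Genes past the threshold numbered 2075 (endoglin siRNA against control siRNA), 181 (untreated against control siRNA) and 22 (endoglin siRNA against untreated). In the same order there were 4509, 511 and 170 without background correction, and 5246, 475 and 274 with normexp fitted without the 10 lowest spots. In limma 0, 0 and 0 passed with the scanner's log ratios (7102, 3333 and 2776 at an unadjusted p under 0.05), with median centring (6178, 73 and 259), with scaling (1420, 581 and 350) and with the deposited table turned (7099, 3334 and 2771). Without the dim filter 360 passed for untreated against control siRNA and 47 for endoglin siRNA against untreated. With the deposited sign 2926 passed for endoglin siRNA against untreated. Leaving out 1 array gave 882 to 2672, 0 to 756 and 0 to 431. The 0 counts came without the pooled untreated array, where 1994 and 1236 genes had an unadjusted p under 0.05 in limma. The labels do not pair the arrays by number; with RNA source as a replicate block 3954, 1036 and 267 genes passed, and the deviations of the 2 groups between sources had a correlation of 0.293 over genes. Every Id probe was well above background. With endoglin siRNA against control siRNA, the Id4 call still changed with the background method. Its limma adjusted p was 0.0669 as reported and 0.0384 with normexp fitted without the 10 lowest spots.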
